A study of Homo sapiens with 6 samples.

Results

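R-loops called at gene promoters in untreated HEK293T cells, but not on the same strand after a nucleoside treatment, made up 1100 of the 5121 untreated promoter R-loops (21.5%, Wilson 95% interval 20.4% to 22.6%) and 1100 of the 10231 R-loops in the untreated list as a whole. A member had to share no base on its own strand with any treated R-loop. Its midpoint had to lie from 1000 bp upstream to 100 bp downstream of the start of a GENCODE release 44 transcript lifted to GRCh37. The members were selected on the peak lists themselves, by the presence of a call in untreated cells and its absence in treated cells, so their number and their lack of a treated counterpart are descriptions and carry no test. For scale, 25.4% of all untreated R-loops, in and out of promoters, had no treated counterpart, and 28.8% of the 5754 treated promoter R-loops had no untreated one.

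R-loops were mapped by spKAS-seq in HEK293T, a human embryonic kidney line that is widely used for its ease of culture. In this assay N3-kethoxal labels guanines in unpaired DNA in living cells, and the labelled strand alone is recovered, so each R-loop comes with a strand. One condition was untreated, with 2 samples, and the other had received N2-heptynyl-dG, a deoxyguanosine with an alkyne-bearing chain on its N2 atom, at 10 μM for 3 h, also with 2 samples. Both were exposed to 5 mM N3-kethoxal for 10 min, and 2 untreated input samples accompanied them. Each condition has a peak list, deposited with its replicate 1, with positions and strand but no height, score or p-value. Per the study's methods both samples of a condition went into the calling of R-loops. Each R-loop below is therefore called or not called in a list, the spread between samples is not in the values, and no p-value between conditions is given. Signal under the calling threshold in treated cells was not measured here. The intervals on shares and medians cover counting error over R-loops only.

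An R-loop forms when a transcript pairs with its DNA template and leaves the other DNA strand unpaired. Promoters are frequent sites, because initiation and pausing of RNA polymerase leave nascent RNA close to DNA that is rich in G and C. Many human promoters are also transcribed away from the gene, and R-loops then lie on both strands around the start. A G-rich unpaired strand is known to favour R-loops and can fold into G-quadruplexes, stacked structures of guanines.

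The sequences below are shown because the members differed from the other promoter R-loops in the G and C content of their own strand. Each is a stretch of a member outside annotated untranslated regions, given 5′ to 3′ on the strand of the R-loop in GRCh37, with runs of 3 or more G in capitals. Where more than 250 bases were free of such regions, the 250 bases with the most G were taken, so the stretches are richer in G than the members they come from. The first 2 come from members at protein-coding starts with among the highest GC skew, (G − C)/(G + C), namely DVL1 (chr1:1276238-1276487, minus strand) and TFG (chr3:100428687-100428813, plus strand). The next 2 come from those with among the lowest, GSDMA (chr17:38108893-38109142, minus strand) and TFAP2A (chr6:10415591-10415840, plus strand). The last 2 are THOC1 (chr18:268237-268486, plus strand), among the widest members, and DDX5 (chr17:62501557-62501752, minus strand), whose gene the study examined.
DVL1: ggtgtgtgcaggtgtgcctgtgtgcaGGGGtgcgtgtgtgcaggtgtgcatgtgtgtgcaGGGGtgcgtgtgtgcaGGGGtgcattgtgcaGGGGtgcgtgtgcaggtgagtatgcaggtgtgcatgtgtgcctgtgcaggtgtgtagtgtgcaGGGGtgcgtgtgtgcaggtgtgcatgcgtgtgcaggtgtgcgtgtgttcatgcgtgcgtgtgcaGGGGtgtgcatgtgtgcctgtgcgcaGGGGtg
TFG: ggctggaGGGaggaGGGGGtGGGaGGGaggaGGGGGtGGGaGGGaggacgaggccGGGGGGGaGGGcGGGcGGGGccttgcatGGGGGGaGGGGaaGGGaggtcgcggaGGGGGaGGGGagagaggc
GSDMA: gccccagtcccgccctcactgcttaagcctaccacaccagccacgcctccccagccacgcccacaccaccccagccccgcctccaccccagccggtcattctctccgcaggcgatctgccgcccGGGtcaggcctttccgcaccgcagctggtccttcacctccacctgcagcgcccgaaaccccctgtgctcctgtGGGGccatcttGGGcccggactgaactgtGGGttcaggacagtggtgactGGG
TFAP2A: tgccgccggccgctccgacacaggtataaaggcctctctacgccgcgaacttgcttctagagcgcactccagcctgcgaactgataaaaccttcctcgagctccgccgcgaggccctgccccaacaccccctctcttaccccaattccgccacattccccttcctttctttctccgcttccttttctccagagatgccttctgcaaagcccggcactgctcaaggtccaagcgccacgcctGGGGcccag
THOC1: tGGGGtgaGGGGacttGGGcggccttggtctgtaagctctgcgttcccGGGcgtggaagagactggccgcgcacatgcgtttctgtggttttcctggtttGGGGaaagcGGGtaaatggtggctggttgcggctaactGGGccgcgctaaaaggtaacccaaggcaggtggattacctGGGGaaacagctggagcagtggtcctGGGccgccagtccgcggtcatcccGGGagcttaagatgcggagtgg
DDX5: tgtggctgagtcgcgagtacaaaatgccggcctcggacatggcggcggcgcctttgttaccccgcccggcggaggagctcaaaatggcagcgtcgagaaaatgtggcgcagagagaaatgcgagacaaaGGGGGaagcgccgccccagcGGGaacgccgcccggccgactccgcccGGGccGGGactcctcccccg

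The TFG stretch held 16 runs of 3 or more G in 127 bases, with 87 G against 12 C. The DVL1 stretch held 7 such runs in 250 bases, within a repeated TG-rich pattern. The TFAP2A stretch had 1 run, with 49 G against 104 C. The GSDMA stretch had 60 G against 112 C. Both of these stretches were richer in C than in G, although they were chosen for their G.

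Members were narrow. Widths were multiples of 250 bp in 10225 of the 10231 untreated R-loops. Of the 1100 members 832 (75.6%) were 500 bp wide, 188 (17.1%) were 750 bp, 79 (7.18%) were 1000 bp or more and 1 was 153 bp. Among the 4021 untreated promoter R-loops shared with the treated list, 47.9% were 500 bp wide. The mean width was 586 bp in members, 759 bp in shared R-loops and 581 bp in the 1660 promoter R-loops found only in the treated list, so members resembled the treated-only R-loops in width. Of the untreated promoter R-loops of 500 bp, 30.2% (28.5% to 31.9%) were members, against 13.9% (12.2% to 15.9%) at 750 bp, 4.96% (2.92% to 8.30%) at 1250 bp and 1.14% (0.201% to 6.16%) at 2000 bp or more. Width moved with membership in the treated list as well, and the part it has in the results below was not tested beyond the values given for R-loops of 500 bp.

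**Figure D1:**
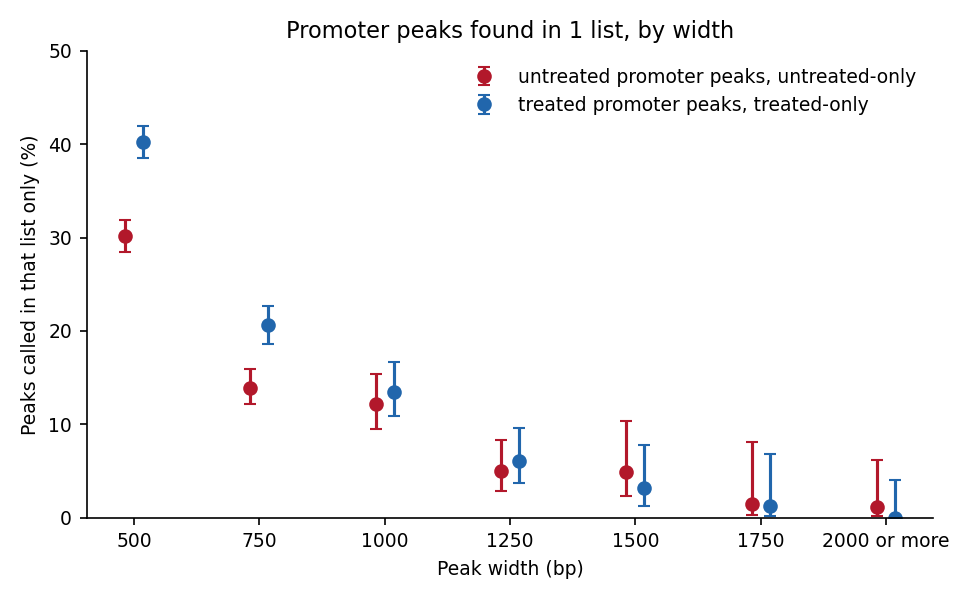
Share of promoter R-loops called in 1 list only (y axis, percent) by peak width (x axis, bp), for the untreated list in red and the treated list in blue, with Wilson 95% intervals as bars. In both lists the share was highest at 500 bp, where it was 30.2% for the untreated list, and it was 1.14% for untreated R-loops of 2000 bp or more.

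The widest members lay at genes of varied function. The widest of all, 2000 bp, was at ENSG00000279923, a locus to be experimentally checked on chromosome 5 (chr5:31557416-31559415). NDUFV1, which encodes a core subunit of respiratory complex I, had a member of 1750 bp on its own strand (chr11:67374226-67375975), 5000 bp from the nearest treated R-loop of that strand. THOC1, a subunit of the THO complex that packages nascent RNA and limits R-loops, had one of 1500 bp antisense to the gene (chr18:268234-269733), and the nearest treated R-loop on its strand was 2977623 bp away. AP3D1, a subunit of the AP-3 vesicle adaptor, TRIOBP, an actin-binding protein, ADAM32, a member of the ADAM family, and the noncoding genes MUC20-OT1 and ENSG00000268746 also had members of 1500 bp. CGN, the tight-junction protein cingulin, and PPP1R15B, a regulator of eIF2α dephosphorylation, followed with 1250 bp, a width that 13 members had and of which these 2 came first in genome order. Members of such width were rare, with 1 among the 88 untreated promoter R-loops of 2000 bp or more.

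Members fell on both strands of the promoter. Of the 1100, 575 (52.3%, 49.3% to 55.2%) were sense, on the strand of the gene whose start was nearest, and 525 (47.7%) were antisense to it. Shared R-loops were sense in 57.8% (56.3% to 59.3%) and treated-only R-loops in 55.1% (52.7% to 57.5%). The interval of members did not meet that of the shared set but did meet that of the treated-only set. At 500 bp the shares were 51.4% of members (48.1% to 54.8%), 57.9% of shared R-loops and 53.7% of treated-only R-loops (51.0% to 56.5%). The level depended on the window and the transcripts, but members stayed below shared R-loops in each of the 7 alternatives. With a window of 1000 bp on either side of a start the shares were 68.2% and 73.6%. With canonical transcripts alone they were 34.4% and 43.5%, so that antisense R-loops were then in the majority in both sets. At nearest starts of protein-coding genes 53.0% of members were sense, against 60.0% of shared R-loops. At those of long noncoding genes 46.5% of members were sense (39% to 54.3%, n = 159), against 45.9% of shared R-loops (42.0% to 49.9%), so there the sets did not differ beyond counting error. Members used both DNA strands alike, with 543 on the plus strand.

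The place differed between sense and antisense members. Within the window, sense members had a median midpoint offset of -9 bp from the start (95% interval -22 to -1, quartiles -198.5 and 39, negative values being upstream). Of them 82.1% covered the start. Antisense members lay upstream, with a median offset of -325 bp (-363 to -306, quartiles -484 and -210), and 36.0% covered the start. Shared R-loops had medians of -1 bp and -335 bp on the 2 sides, so the arrangement of sense R-loops over the start and antisense R-loops upstream was not particular to members. Of all members 60.1% covered the nearest start, against 72.2% of the wider shared R-loops. Among untreated promoter R-loops centred 0 to 100 bp downstream of the start on the sense strand, 263 of 1398 (18.8%, 16.9% to 20.9%) were members, and among antisense ones with offsets from -400 to -201 bp, 198 of 872 (22.7%, 20.1% to 25.6%). The window ends at 100 bp downstream, so R-loops centred further into the gene are not among the members. The offsets, and so their medians, are bounded by this cut. Sense members were still frequent at it, with 150 centred from 0 to 49 bp and 113 from 50 to 100 bp.

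**Figure D2:**
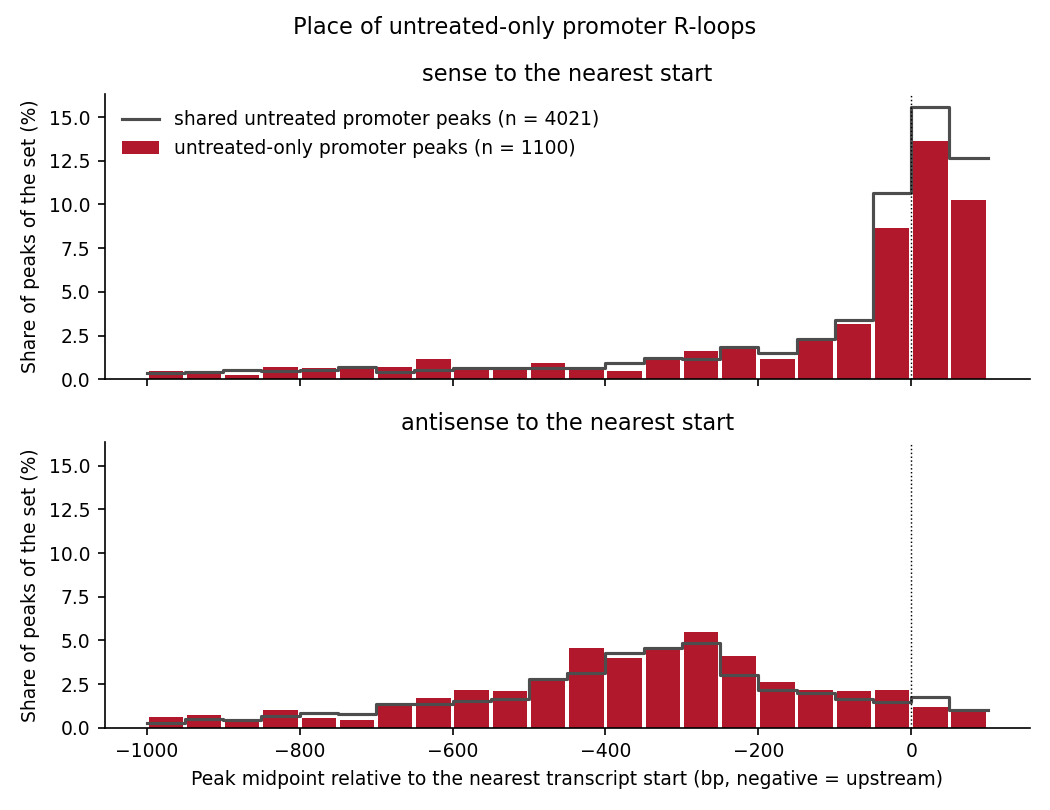
Midpoints of untreated-only (red bars, n = 1100) and shared (grey line, n = 4021) promoter R-loops relative to the nearest transcript start (x axis, bp in bins of 50), as a share of each set (y axis, percent), with sense R-loops above and antisense R-loops below. Within the window, which ends at 100 bp downstream, sense members were most frequent from 0 to 49 bp (median -9 bp). Antisense members were most frequent upstream of the start (median -325 bp). The shared set had the same arrangement.

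The borders of the rule fell within a dense population. A member may lie in the windows of several starts, and it was taken as near the border only where it was so in every one of them. MTA2, a subunit of the NuRD chromatin complex, had a midpoint at -1000 bp, the last position inside. ZNF397, a zinc-finger gene, followed at -997 bp, and ANKRD7, at 95 bp, was the next. LACTB and ENSG00000272657 each had an untreated-only R-loop at 101 bp, just outside. By this count 116 members lay within 100 bp inside the border of every window they were in, and 103 untreated-only R-loops within 100 bp outside a window. At the overlap border 23 members touched a treated R-loop edge to edge, and 112 promoter R-loops overlapped a treated one by 250 bp, the smallest overlap seen.

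Most members had protein-coding genes nearby. The nearest start belonged to a protein-coding gene for 905 members (82.3%), to a long noncoding RNA for 159 (14.5%) and to another class for 36 (3.27%). Shared R-loops gave 81.7%, 15.0% and 3.28%, so the classes of gene differed by less than the counting error. A coding start on the strand of the R-loop itself lay within reach of 506 members (46.0%), against 52.0% of shared R-loops. A further 449 members (40.8%, against 34.5% of shared R-loops) had coding starts on the opposite strand alone, and 41 of these 449 had an annotated noncoding start on their own strand. Starts of both strands lay in the window of 201 members (18.3%) and of 23.2% of shared R-loops. Treated-only R-loops lay between members and shared R-loops in these values. They had a coding start on their own strand in 48.3%, coding starts on the opposite strand alone in 38.1% and starts of both strands in 21.4%. Each of these intervals met that of members. By base, 22.2% of member sequence was untranslated region, 6.73% coding, 33.2% intron, 13.0% other exon and 24.9% outside transcripts. The shares of shared R-loops were 23.7%, 7.90%, 29.1%, 14.7% and 24.6%.

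The strand of the R-loops in the files was set against genes. Away from promoters, 1067 of 1381 shared R-loops inside genes of 1 strand (77.3%) lay on the strand of the gene, the strand left unpaired when RNA pairs with its template.

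At the median over sense and antisense together, members carried more G than C on their own strand, and the other promoter R-loops carried more C than G. The median GC skew was 0.0220 in members (0.0126 to 0.0294), -0.0109 in shared R-loops (-0.0153 to -0.00732) and -0.0226 in treated-only R-loops (-0.0291 to -0.0160), and these intervals did not overlap. Skew was above 0 in 57.0% of members (54.1% to 59.9%), in 45.0% of shared R-loops and in 41.6% of treated-only R-loops. Among R-loops of 500 bp the shares were 57.1%, 45.9% and 43.0%, so the order held at equal width. Sense members of 500 bp had skew above 0 in 59.6% (54.9% to 64.1%), against 48.4% (45.5% to 51.3%) of shared sense R-loops. On the antisense side the shares were 54.5% (49.6% to 59.3%) and 42.5% (39.2% to 46.0%). At all widths the median skew was -0.0019 (-0.0073 to 0.0030) in shared sense R-loops and 0.0108 (0 to 0.0241) in antisense members, so neither differed from 0 beyond counting error. The order also held within each side of the promoter. Members of 750 bp had a median skew of 0.0224 (0.00913 to 0.0365). With both lists limited to R-loops of at least 750 bp, however, which adds R-loops with a narrower treated counterpart, the median was 0.00448 (-0.00707 to 0.0149), and 51.0% of the untreated-only set against 43.5% of the shared set had skew above 0. In the other 6 alternatives the share above 0 in members ran from 56.7% to 57.8%. For scale, windows of 500 bp centred on the canonical starts of 19737 protein-coding genes had a median skew of 0.0321 on the gene strand. The like values are those of sense R-loops of 500 bp. Their medians were 0.0305 in members (0.0154 to 0.0414) and -0.0030 in shared R-loops (-0.0123 to 0.0062). Sense members were thus near the value of all coding starts, and shared sense R-loops were below it.

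Single members showed how wide the range was. DVL1, a transducer of Wnt signals, had the highest skew at a coding start, 0.550, in an intronic sense member at an offset of -621 bp from the nearest start. RBMXL1, an RNA-binding protein gene, followed with 0.456, antisense at -281 bp, in a window it shares with KYAT3, a kynurenine aminotransferase. FOXO4, a forkhead transcription factor, had 0.404 and was among the 19 members that overlapped a treated R-loop on the opposite strand. TFG, a protein of transport from the endoplasmic reticulum, had 0.385, and MORF4L1, a chromatin protein of histone acetyltransferase complexes, had 0.380. At the other end stood GSDMA, a gasdermin, with -0.494, MAGIX with -0.409 and TFAP2A, a developmental transcription factor, with -0.401. PPP2R5C, a regulatory subunit of protein phosphatase 2A, had -0.379, and HMG20B, a member of the LSD1 corepressor complex, had -0.374. Of the 5 highest, 4 were sense members, and of the 5 lowest, 4 were antisense.

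Members were also less rich in G and C together. Their median GC content was 59.2% (58.4% to 59.8%), against 60.5% (60.2% to 60.8%) in shared and 63.2% (62.4% to 63.8%) in treated-only R-loops. At 500 bp the medians were 60.0%, 62.0% and 63.4%. With canonical transcripts alone the medians of members and shared R-loops were 59.4% (58.3% to 60.2%) and 60.2% (60.0% to 60.6%), with intervals that met. Sense members had a median of 60.8% and antisense members of 56.8%. When untreated promoter R-loops were split into 5 equal classes by GC content, 27.4% of the lowest class were members (24.8% to 30.2%) and 19.6% of the highest (17.3% to 22.1%). Among R-loops of 500 bp the share fell at each step, from 37.5% (33.2% to 42.1%) to 24.7% (21.6% to 27.9%). The ratio of observed to expected CpG had medians of 0.734, 0.767 and 0.774 in members, shared and treated-only R-loops.

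**Figure D3:**
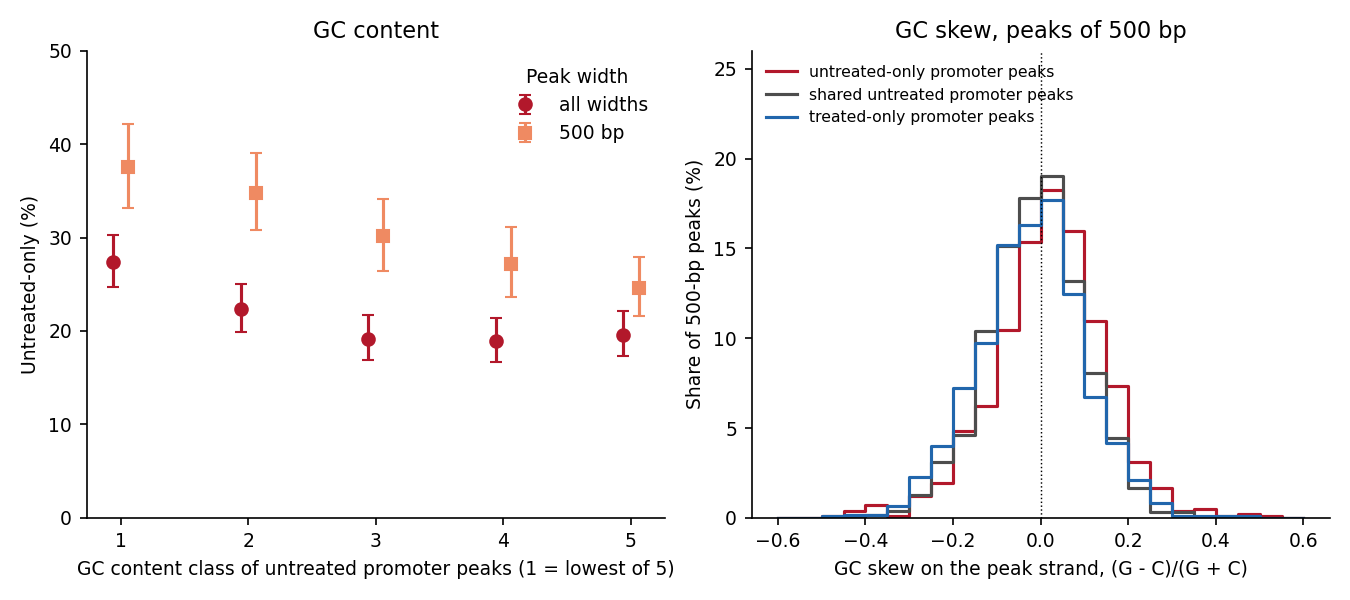
Left, share of untreated promoter R-loops that were untreated-only (y axis, percent, Wilson 95% bars) by GC content in 5 classes (x axis, 1 being the lowest), for all widths and for 500 bp, where it ran from 37.5% to 24.7%. Right, GC skew on the R-loop strand (x axis) as a share of 500-bp R-loops of each set (y axis, percent in bins of 0.05), with members shifted to the right (57.1% above 0, against 45.9% of shared and 43.0% of treated-only R-loops).

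A G-quadruplex motif, 4 runs of at least 3 G separated by 1 to 7 bases of any kind, was looked for on each strand of the R-loops of 500 bp. On the R-loop strand it was found in 19.1% of members (16.6% to 21.9%), 16.5% of shared (14.9% to 18.2%) and 21.0% of treated-only R-loops (18.8% to 23.3%), and the interval of members met both of the others. On the opposite strand it was found in 21.5% of members (18.9% to 24.4%), 25.6% of shared (23.7% to 27.6%) and 31.2% of treated-only R-loops (28.7% to 33.9%). Members thus had the motif at similar rates on both strands, while it was commoner on the paired strand in the other sets. Windows of 500 bp at all coding starts held it in 30.7% on the gene strand and 25.8% on the other. A motif is a match of letters and says nothing of the structure formed.

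Treated R-loops were seldom just beyond the edge of a member. Of the 1100 members 41 (3.73%) had a same-strand treated R-loop within 250 bp, the 23 touching ones included, 66 (6.0%, 4.74% to 7.56%) within 1000 bp and 110 (10.0%) within 5000 bp. The median distance was 71375 bp (62750 to 85250), and for 473 members (43.0%) it exceeded 100000 bp. The treated-only promoter R-loops had an untreated neighbour within 1000 bp in 5.30% (4.32% to 6.49%), a share that did not differ from that of members beyond counting error. Both sets were selected for having no same-strand overlap with the other list. Their distances are therefore to other R-loops, and no set free of this selection was compared. The coding-start members farthest from a treated R-loop were at ENSG00000285976 and PTP4A1, a protein tyrosine phosphatase, with 5993831 bp. MYO10, an unconventional myosin of filopodia, followed with 4522440 bp, then THOC1, CTSO, the protease cathepsin O, with 2608894 bp and TMTC2, a mannosyltransferase, with 2537000 bp. DDX5, an RNA helicase that resolves RNA-DNA hybrids, was among the 41 members close to a treated R-loop. Its sense member (chr17:62501253-62501752, midpoint 5 bp downstream of the start) lay 250 bp from a treated R-loop of the same strand, and the gene also had an untreated promoter R-loop that the treated list shared.

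**Figure D4:**
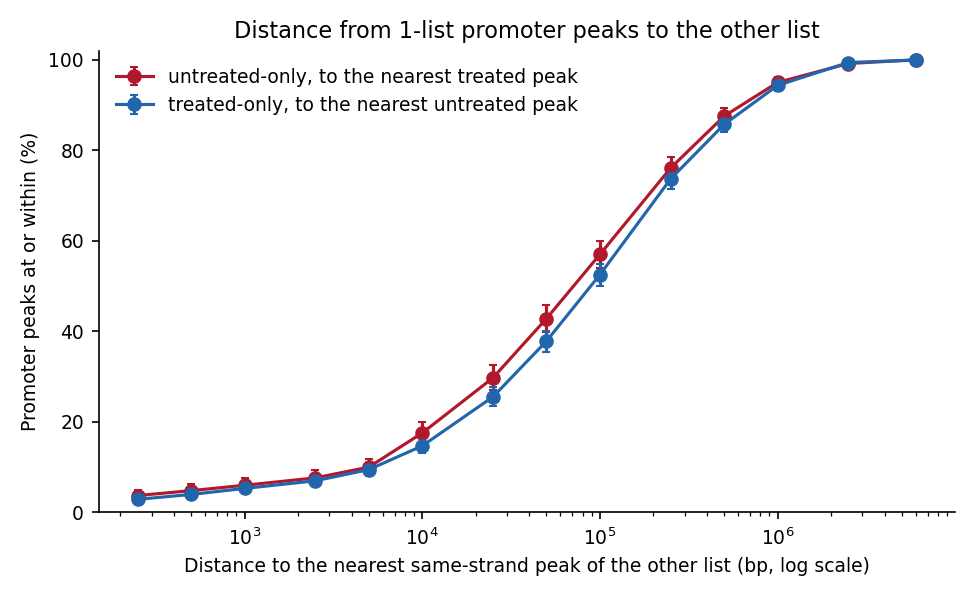
Cumulative share (y axis, percent, Wilson 95% bars) of untreated-only promoter R-loops (red) and treated-only promoter R-loops (blue) by distance to the nearest same-strand R-loop of the other list (x axis, bp, log scale). Both curves stay at or below 10.0% up to 5000 bp, and 57.0% of untreated-only R-loops lie within 100000 bp.

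The opposite strand of the same promoter was looked at next. For 806 members (73.3%, 70.6% to 75.8%) no treated R-loop of either strand lay within 1000 bp, a share that the rule largely fixes. Of the treated-only promoter R-loops 78.3% (76.3% to 80.2%) had no untreated one so near. A treated R-loop on the opposite strand lay within 1000 bp of 235 members (21.4%) and of 20.3% of shared R-loops. In untreated cells 215 members (19.5%) had an opposite-strand R-loop within 1000 bp, against 18.7% of shared R-loops. Of these 215 partners 162 (75.3%, 69.2% to 80.6%) were themselves shared with the treated list, against 79.4% (76.4% to 82.1%) of the partners of shared R-loops. In these opposite-strand values members and shared R-loops did not differ beyond counting error. In 42 members (3.82%) the partner was another member, and in 28 of them the 2 R-loops met edge to edge.

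By gene, the members lay at 1319 genes, of which 1033 were protein-coding. Single-gene windows were the rule, with 866 members at 1 gene, 218 at 2 and 16 at 3 or more. Of the 5885 gene symbols with an untreated promoter R-loop, 22.4% had at least 1 member, and 20.8% had no treated promoter R-loop at all on either strand. Of the 1319 genes 1023 (77.6%, 75.2% to 79.7%) had no treated R-loop centred in a promoter window and 296 had one. The rule raises the first share, because each gene entered through an R-loop without a treated counterpart. In 212 genes another untreated promoter R-loop was shared by both lists. A gene could have such an R-loop and still count as without a treated one, as SLC39A8 did, where the treated counterpart was centred outside the window.

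At some genes both strands of the promoter held members. In all 30 genes had at least 2 members, 27 of them protein-coding. No treated promoter R-loop on either strand was present at 24 of the 30, against 77.6% of all genes with a member. The rule raises both shares. In 25 genes there was 1 member on each strand, not always at the same promoter. At BCAS3, IFT122, MMACHC and ZBTB18 the 2 members lay at starts far apart. Those of BCAS3 were at chr17:58754503-58755002 and chr17:58964253-58964752. EIF3J, a translation initiation factor subunit, had a sense member at 2 bp and an antisense one at -440 bp, with touching edges, the second being sense to the divergent transcript EIF3J-DT. INTS3, an Integrator subunit, had a sense member at 13 bp and an antisense one of 1000 bp at -696 bp. NDUFV2, another complex I subunit, had members at 41 bp and -271 bp, and CRELD1, a cell adhesion gene, at -9 bp and -226 bp. The same back-to-back arrangement was seen at MYO10, SPIN2B, a spindlin family member, VIRMA, a subunit of the m6A methyltransferase complex, SGK3, a protein kinase, BCL7B, a SWI/SNF component, PROCA1 and ANKRD36B. DNAJB4, a cochaperone, had 3 members over its alternative starts, 2 of which also lay in the promoter window of FUBP1, a DNA-binding regulator of MYC. HNRNPL, NAAA, SESN1 and SLC6A15 had 2 members each on the gene strand, at different starts.

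Gene groups were compared by how many of their genes with an untreated promoter R-loop had a member, against the 22.4% over all such genes. These are counts, and no list was tested. Genes that act on R-loops themselves stood at 4 of 14. They were THOC1 and THOC3, subunits of THO, and the helicases DDX5 and DDX41. THOC3 had a sense member at 93 bp and DDX41 one at -716 bp, and neither gene had a treated promoter R-loop. DEAD/DEAH helicases had members at 5 of 23 genes, which besides DDX5 and DDX41 were DDX54, DHX8, a helicase that releases spliced RNA, and EIF4A1, an RNA helicase of translation initiation. Both shares were near the background or too small in number to set apart from it.

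Repair genes were in the same range. Nucleotide excision repair, which removes bulky lesions, had members at 4 of 14 genes, DDB1, ERCC2, ERCC8 and RPA3. A treated promoter R-loop was present at 3 of these 4, and at 296 of all 1319 genes with a member. ERCC2, a helicase subunit of TFIIH, was the exception among the 4, with an antisense member at -6 bp, 65000 bp from the nearest treated R-loop of its strand. Translesion synthesis had 2 of 11, POLH, the polymerase that bypasses ultraviolet dimers, with an antisense member at -421 bp, and USP1, a deubiquitinase of PCNA, with a sense member at 79 bp. Fanconi anemia and homologous recombination had 4 of 18. FANCE and FANCI had sense members at -72 bp and -98 bp and FANCL one at -785 bp, none with a treated promoter R-loop, while BABAM1, a BRCA1-A subunit, had one. DNA replication had 5 of 22, namely CDC45 and GINS3 of the replicative helicase, DNA2, POLE and PRIM1. All of these shares had intervals that included 22.4%.

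The transcription and RNA processing groups also lay close to 22.4%, and histone modifiers stood at a higher share with an interval that included it. Members were at 14 of 67 genes of RNA polymerase II and general transcription, among them GTF2E1, INTS3, INTS7, IWS1, MED15 and MED24. They were at 15 of 59 splicing factor genes, among them HNRNPAB, HNRNPH3, HNRNPL, HNRNPU, HNRNPUL1 and LUC7L2. HNRNPU, a nuclear matrix RNA-binding protein, had a sense member at 92 bp and an antisense one at -290 bp with a GC content of 77.4%. Of histone modifiers and remodelers 15 of 50 (30.0%, 19.1% to 43.8%) had a member, including ATRX at 0 bp, BMI1, CHD8, EED and INO80. EED, a Polycomb subunit, had a sense member at 13 bp with a skew of 0.289 and no treated R-loop of its strand within 710000 bp. Translation factors stood at 8 of 30, mitochondrial ribosomal proteins at 6 of 27, respiratory chain subunits at 8 of 34, proteasome subunits at 5 of 18 and cell cycle genes at 9 of 43.

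Counted by gene, zinc-finger and metabolic genes were the lists whose intervals lay wholly above 22.4%. Of the 137 zinc-finger genes with an untreated promoter R-loop 41 had a member (29.9%, 22.9% to 38.1%), and 36 of the 41 had no treated promoter R-loop. The same lack was seen at 1023 of all 1319 genes with a member (77.6%), a share that the rule raises. ZKSCAN1, ZNF112, ZNF138, ZNF148, ZNF197 and ZNF202 came first by name. ZNF585B and ZNF383 shared a single member, as did ZNF646 and ZNF668, so these genes are not independent counts. The zinc-finger interval treats them as independent, so its place above 22.4% does not set the list apart. Glucose and lipid metabolism had the highest share of the 23 lists, 11 of 29 genes (37.9%, 22.7% to 56.0%). These included DLAT, a pyruvate dehydrogenase subunit, with a sense member at 66 bp, ELOVL5, a fatty acid elongase, with one at -3 bp, and HK1, hexokinase, with an antisense one at 59 bp. ACACA and FDFT1, of fatty acid and sterol synthesis, had a treated promoter R-loop, while IDH3G of the citric acid cycle did not. The lower bounds lay just above 22.4%, without any adjustment for 23 lists or for members shared between genes. Untreated promoter R-loops at the metabolic genes were 500 bp wide in 67.6%, and at the zinc-finger genes in 59.4%. Over all untreated promoter R-loops 2757 of 5121 had this width. The shares were 68.0% at genes of RNA polymerase II and general transcription and 70.0% at proteasome subunit genes, lists whose intervals included 22.4%.

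Histone and ribosomal protein genes had the lower shares. None of the 21 replication-dependent histone genes with an untreated promoter R-loop had a member (upper bound 15.5%). Cytosolic ribosomal protein genes had 2 of 49 (4.08%, 1.13% to 13.7%). RPL13 had a sense member at -37 bp, with no treated promoter R-loop, and RPS2 a sense member at 5 bp, 500 bp from a treated R-loop of the strand. The RPS2 member was also antisense to SNHG9, which with SNHG20 made 2 of 20 small nucleolar RNA host genes. Untreated promoter R-loops at these 3 lists were wide, with 10.0% of 500 bp at the histone genes, 30.0% at the ribosomal protein genes and 13.6% at the host genes. Width moved with these shares, and its part in them was not tested. Solute carriers had 11 of 69, heat shock proteins and cochaperones 9 of 50, with CCT8 and DNAJB1 among them, and HOX genes 1 of 11, HOXA3. Of the immediate early genes 4 of 19 had a member, and JUNB and JUND, both AP-1 subunits, had no treated promoter R-loop, whereas FOSB and NR4A2 did.

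**Figure D5:**
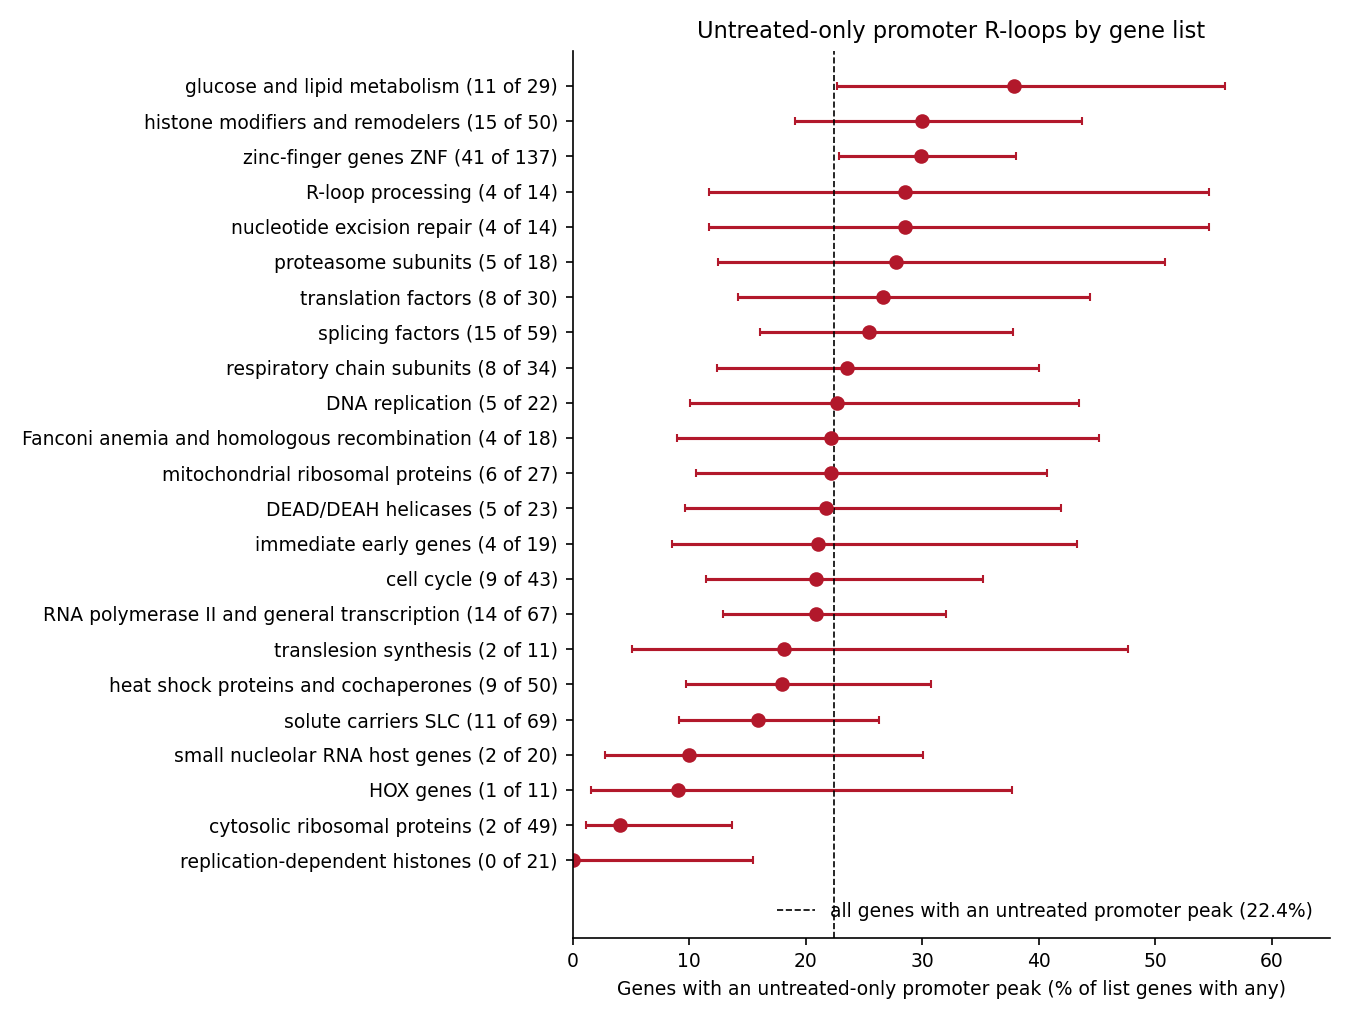
Share of genes with at least 1 untreated-only promoter R-loop (x axis, percent of list genes with any untreated promoter R-loop, Wilson 95% bars) for 23 gene lists (y axis, counts in parentheses). The dashed line is the 22.4% over all genes, which most intervals cross. Those of replication-dependent histone and cytosolic ribosomal protein genes lie wholly below it. Those of metabolic and zinc-finger genes lie just above it when counted by gene, and some zinc-finger genes share a member. The intervals treat genes as independent and are not adjusted for 23 lists.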

How the data were processed

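Reads of the spKAS-seq libraries were trimmed, aligned to hg19 with Bowtie2 and freed of duplicates by the authors, who then called R-loops on each strand and deposited 1 list of regions per condition. Trim Galore, Picard, bedtools and deepTools are also named in the submitters' processing notes, with versions not given in the sources used here. The list is attached to replicate 1. Both samples of a condition were used to call R-loops, and how they were combined is not given in the sources used here, and no depth per sample can be read from the lists. The 4 columns hold chromosome, start, end and strand. All 21213 R-loops on chromosomes 1 to 22, X and Y ended within the GRCh37 chromosomes of the reference.

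Overlap of at least 1 bp on the same strand, promoter windows and distances were computed in Python 3.11.15 with pandas 2.3.3, numpy 2.4.6 and scipy 1.17.1, tested on simulated data, and the overlap count was checked with bedtools 2.31.1. Starts came from the 254413 transcripts of 64486 genes in GENCODE release 44 lifted to GRCh37, and the nearest start in the window named an R-loop. Shares have Wilson 95% intervals and medians have order-statistic intervals. Named members are the 10 widest, the 5 highest and 5 lowest in skew and the 5 farthest from a treated R-loop at coding starts, genes with at least 2 members, members at the border, all genes of the 6 R-loop, repair, helicase and replication lists, up to 6 by alphabet of each other list, and genes the study examined. Some others of a list were named after their values were seen. The members and lists were chosen with earlier results of these data known. Alternatives covered the overlap rule, the window, the transcripts and the width. Some items are not reported here.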

Additional observations from a re-analysis of the deposited data

How the results depend on the processing

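Of 63 values, 9 results under 7 alternatives, 42 stayed within the reported 95% interval or, for the number of members, within 1.5 times it, 21 moved further, and 0 changed sign. Only the median skew could change sign, the other results being counts, shares or a GC content. With R-loops of at least 750 bp its interval ran from -0.00707 to 0.0149. The number of members was 1398 with 1000 bp on either side of a start, 955 at protein-coding genes and 784 with canonical transcripts. The share of members with a same-strand treated R-loop within 1000 bp became 10.4% with at least 50% cover required, 2.36% with a gap of 250 bp counted as shared, 4.72% with canonical transcripts and 3.63% with R-loops of at least 750 bp. A window of 1000 bp on either side gave 68.2% sense, 79.8% coding, 29.9% with starts of both strands and 69.2% of genes without a treated promoter R-loop. Protein-coding genes alone gave 100% coding by construction, 9.53% with starts of both strands and 75.1% of genes without a treated one. Canonical transcripts gave 34.4% sense, 78.4% coding, 10.6% with starts of both strands and 88.1% of genes without a treated one. R-loops of at least 750 bp gave 661 members, or 28.0% of untreated promoter R-loops, 79.6% coding, 92.9% of genes without a treated one, a GC content of 57.6% and a skew of 0.00448; by construction this set includes R-loops whose treated counterpart is narrower. The cause of the other shifts was not tested.

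No paired analysis was possible because the lists hold no value per sample, and for the same reason no replicate was left out. Absence from the treated list is a call at an unknown threshold, and the depth of the libraries is unknown.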

Other observations

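By chromosome, the share of untreated promoter R-loops that were members was lowest on chromosome 5, with 44 of 260 (16.9%, 12.9% to 21.9%), and highest on chromosome 10, with 56 of 187 (29.9%, 23.8% to 36.9%). The share over all chromosomes was 21.5%, which lay within the interval of chromosome 5 and below that of chromosome 10. These are the extremes of all chromosomes, and the intervals were not adjusted for that choice.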
